A study of Mus musculus with 8 samples.

Results

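The hypoxia response and glycolysis genes are a set of 34 genes chosen by symbol, 6 regulators of hypoxia-inducible factor (HIF), 9 HIF target genes and 19 glycolysis genes, among 16464 genes in the deposited table. All 34 were found there. RNA came from the posterior capsule of the mouse knee joint, and every animal was a male wild type C57BL/6 mouse aged 10 weeks. The control group (n = 4 libraries) is labelled naive. In the cast group (n = 4 libraries) a cast fixed the knee at 140 degrees during 2 weeks, and the series text gives an age of 8 weeks for the mice that were cast. The labels do not say whether each library is a separate mouse, whether animals were pooled, or whether the opposite limb was used, so the spread between libraries may be partly technical.

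HIF is a transcription factor made of an oxygen-sensitive alpha subunit, HIF-1 alpha (Hif1a) or HIF-2 alpha (Epas1), and a stable partner, Arnt. When oxygen is plentiful, prolyl hydroxylases (Egln1 and Egln3) mark the alpha subunit, the Vhl protein binds it, and it is degraded. When oxygen is scarce the complex binds a short DNA element and raises genes of glucose uptake, glycolysis, mitophagy and vessel growth. Much of this control acts on the HIF protein, so RNA levels of the regulators do not measure HIF activity. Glycolysis turns glucose into pyruvate and lactate, and several of its steps have tissue isoforms, with Pfkm, Eno3 and Pgam2 typical of skeletal muscle.

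The libraries differed in depth and in markers of other cell types. Naive replicate 4 held 1503880 recovered reads against 5956148 to 7381255 in the other libraries, and it correlated with the other naive libraries at 0.903 to 0.915, which among themselves gave 0.983 to 0.985 (log2 values across genes, which are not independent replicates). Skeletal muscle markers, 18 in the table, were lower in cast capsules (6 fell and 0 rose), with summed levels of 4911, 3484, 6925 and 204 in naive replicates 1 to 4 and 917, 61.6, 82.9 and 234 in cast replicates 1 to 4. Naive replicate 4 thus lay within the cast range. The mean log2 level of these markers served as a covariate in an alternative fit (the muscle covariate). It was 6.80, 6.29, 7.16 and 2.86 in naive and 4.09, 1.47, 1.53 and 2.84 in cast replicates 1 to 4. Because it largely follows the group apart from naive replicate 4, that fit cannot cleanly separate muscle content from the cast. Neutrophil markers rose in 10 of 11 tested genes (summed level 27.0 to 73.1 in naive and 917 to 6754 in cast libraries), and erythroid markers in 10 of 10 (summed haemoglobin genes 1693 to 2900 and 5939 to 29223). Of 10 fat cell markers 3 fell (summed level 7306 to 11935 in naive and 3656 to 9825 in cast libraries). Fibroblast and capsule markers were abundant in both groups. The most abundant, Col3a1, was at 14186 ± 5798 without and 14153 ± 5253 with a cast (here and below mean ± SD over 4 libraries per group). Of the 11 markers in that list limma called 1 higher and 0 lower. Among them 7 had a negative difference, and log2 differences ran from -1.19 to 3.22. DESeq2 called 1 higher and 2 lower. Limma and edgeR each called 0 of 11 macrophage and 0 of 10 endothelial markers, DESeq2 1 of each, and 2 and 1 had an unadjusted limma p under 0.05. In bulk tissue, fewer cells of a type and less RNA per cell cannot be told apart.

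**Figure D1:**
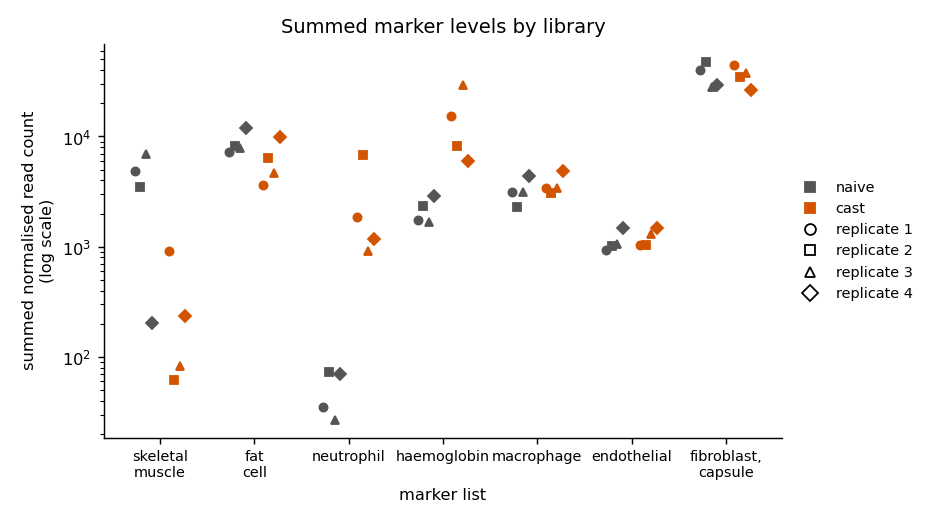
Summed normalised read counts of marker lists (log axis) for each library, with naive libraries in grey and cast libraries in orange and a symbol for each replicate. Muscle markers in naive replicate 4 (204) lie among the cast libraries, whereas neutrophil and haemoglobin sums separate the groups.

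Cast and naive capsules were compared to describe how these genes differed between the groups. Of the 34 genes, 33 passed the filter on low values and were tested. Limma called 3 higher, Bnip3l, Adm and Angptl4, all HIF targets, and 4 lower, Egln1 among the regulators and Hk2, Pfkm and Pfkp in glycolysis. The remaining 26 did not pass. That is 7 of 33, or 21.2%, where 12.0% of all 15120 genes tested were called (6.51% higher and 5.46% lower). The median log2 fold change over the 33 genes was 0.10, against 0.07 over all genes tested. By class, 3 of 8 tested HIF targets rose and 0 fell (median 0.35), 0 of 6 regulators rose and 1 fell (median 0.19), and 0 of 19 glycolysis genes rose and 3 fell (median -0.14). The sign of the glycolysis median was not stable, as it ran from -0.29 to 0.05 leaving out 1 library. At an unadjusted limma p under 0.05 there were 1 higher and 2 lower regulators, 3 higher and 0 lower targets, and 0 higher and 5 lower glycolysis genes. The share of all genes tested at that threshold is not given here. EdgeR gave the same counts of adjusted calls in each class, and DESeq2 gave 1 more higher regulator (Hif1a) and 1 more lower glycolysis gene (Aldoa). All values given below are normalised read counts, differences are log2(value + 1) in cast minus that in naive libraries, and adjusted p-values (Benjamini-Hochberg) come from the limma fit to all 15120 genes.

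**Figure D2:**
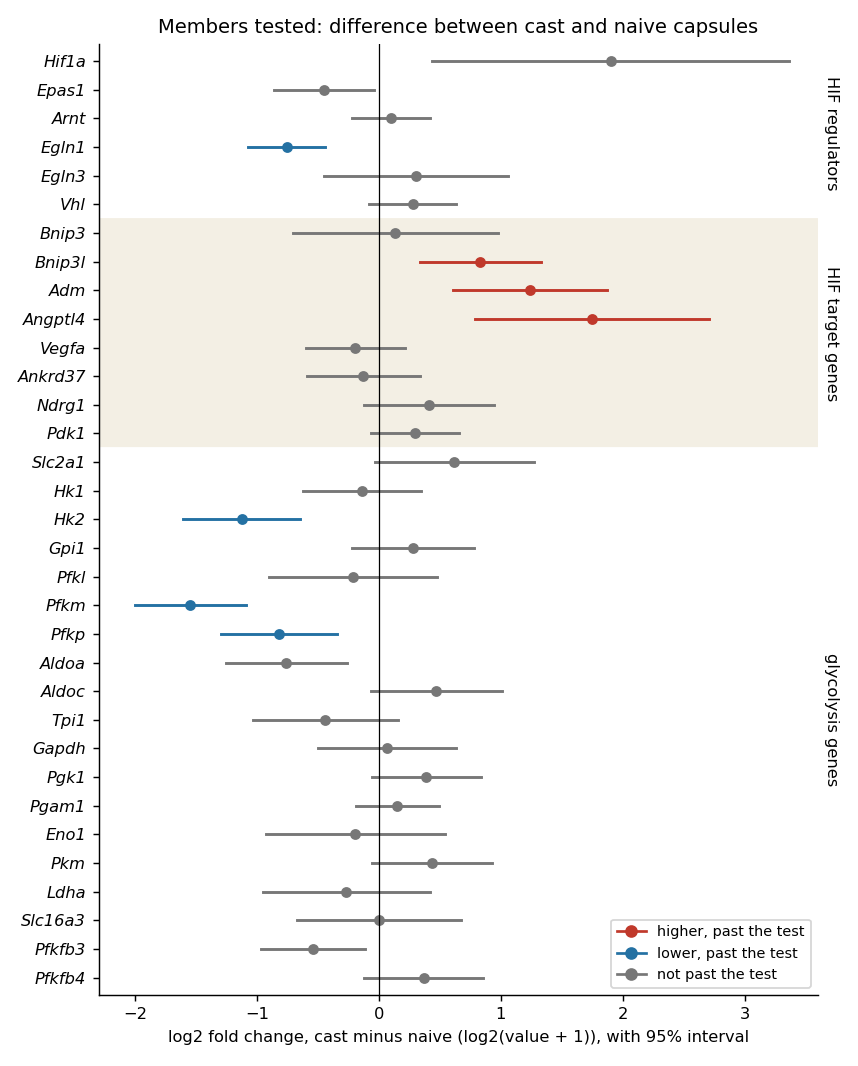
Log2 fold change (cast minus naive, log2(value + 1)) of the 33 tested genes with its 95% interval, in red or blue where limma called the gene higher or lower at an adjusted p of at most 0.05 and in grey otherwise. The 3 red points are HIF targets and 3 of the 4 blue points are glycolysis genes.

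Among the regulators, the prolyl hydroxylase gene Egln1 was the one that passed the test. Its level was 62.8, 73.2, 73.4 and 75.0 in naive replicates 1 to 4 and 40.5, 42.3, 40.1 and 43.5 in cast replicates 1 to 4. The groups did not overlap, and the cast libraries lay close together. Egln1 (chromosome 8, 124908587 to 124949324, minus strand, GRCm38) fell by 0.76 on the log2 scale (SE 0.14, 95% interval -1.07 to -0.44, adjusted p = 0.00926). It passed with each library left out in turn. Naive replicate 4, poor in muscle markers, had 116 Egln1 reads and a value close to those of naive replicates 2 and 3. The part of muscle content in the fall was not tested apart from the cast. Egln3, a hydroxylase gene that HIF itself induces in many cells, was low, at 5.20 ± 2.35 in naive against 6.44 ± 2.09 in cast capsules (log2 difference 0.30, adjusted p = 0.614). Vhl, which encodes the substrate receptor of the ubiquitin ligase, was 22.4 ± 1.73 and 27.3 ± 2.75 (log2 difference 0.28, adjusted p = 0.311).

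The alpha subunits had differences of opposite sign, neither of which passed the test. With the muscle covariate both passed, Hif1a at 3.53 (adjusted p = 0.00982) and Epas1 at -0.76 (0.0384). Hif1a was 209.9, 141, 139.9 and 17.5 in naive replicates 1 to 4 and 274, 351, 479 and 325 in cast replicates 1 to 4. Every cast library was above every naive library, and naive replicate 4 lay far below the rest on 27 reads. Its log2 fold change of 1.90 (SE 0.65, 95% interval 0.44 to 3.36) had an adjusted p of 0.0934. Without naive replicate 4 the difference was 1.12 and passed (adjusted p = 0.00882), a smaller difference with a smaller spread. Hif1a (chromosome 12, 73901375 to 73947530, plus strand) shares exons with an annotated gene on the same strand, Gm49321, to which reads could have been assigned.

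Epas1, more typical of endothelium and fat, was 259, 365, 290.3 and 399 in naive replicates 1 to 4 and 217, 253, 227 and 251 in cast replicates 1 to 4. Again the groups did not overlap, here with the cast libraries below (log2 difference -0.45, SE 0.18, adjusted p = 0.153). Groups were separate in 3 of 6 regulators, Hif1a upward and Epas1 and Egln1 downward, where 11.1% of all genes tested were separate with cast higher and 9.39% with cast lower. Arnt, the shared partner, was 101 ± 6.10 in naive against 109 ± 10.1 in cast capsules (log2 difference 0.10, 95% interval -0.22 to 0.42, adjusted p = 0.698). Per kilobase of transcript, Hif1a made up 50.5, 32.8, 37.7 and 5.22% of the sum of both alpha subunits in naive replicates 1 to 4. The share was 61.3, 63.6, 72.6 and 62.0% in cast replicates 1 to 4. Epas1 was therefore the more abundant transcript in 3 of 4 naive libraries and Hif1a in all 4 cast libraries.

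HIF target genes held all of the rises. Bnip3l, a mitophagy receptor that also clears mitochondria from maturing red cells, was 129, 112, 142 and 78.3 in naive replicates 1 to 4 and 237, 162, 229 and 186 in cast replicates 1 to 4. The groups were separate, with the highest naive library close to the lowest cast library. Bnip3l (chromosome 14, 66985239 to 67008877, minus strand) rose by 0.83 (SE 0.22, 95% interval 0.34 to 1.33, adjusted p = 0.0386), a 1.78-fold change. The call was lost without naive replicate 1 or 2 (adjusted p = 0.0580 and 0.0934) and without cast replicate 1, 2, 3 or 4 (adjusted p = 0.0870, 0.0515, 0.115 and 0.0654). It was also lost in libraries thinned to equal depth (limma adjusted p = 0.0544). Summed haemoglobin genes were also higher in cast libraries, at 1743, 2321, 1693 and 2900 in naive and 15242, 8197, 29223 and 5939 in cast replicates 1 to 4. Cast replicates 1 and 3 were the highest cast libraries for both Bnip3l and these sums, though in opposite order. In naive libraries the order of the sums was the reverse of that of Bnip3l. The part of red cells in the result was not tested. Its relative Bnip3 was 125 ± 47.8 in naive against 138 ± 59.0 in cast capsules (log2 difference 0.13, adjusted p = 0.854), and that sign turned without naive replicate 4 (-0.15) and without cast replicate 1 (-0.09). Bnip3 was 1.31 and passed with the muscle covariate (adjusted p = 0.00934).

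Adm encodes adrenomedullin, a vasodilator peptide. Its level was 32.4, 26.0, 27.3 and 33.0 in naive replicates 1 to 4 and 43.7, 77.2, 61.5 and 121 in cast replicates 1 to 4. Naive libraries were tight, including naive replicate 4, and cast libraries were spread out above them. Adm (chromosome 7, 110627661 to 110629820, plus strand) rose by 1.24 (SE 0.28, 95% interval 0.60 to 1.87, adjusted p = 0.0215), a 2.36-fold change. The call was lost when naive replicate 2 or 3 was left out (adjusted p = 0.0647 and 0.0606), and likewise for cast replicate 2 or 3 (0.0612 and 0.0505). With the level of muscle markers as a covariate it did not pass (log2 difference 0.97, adjusted p = 0.104), nor in libraries thinned to equal depth (limma adjusted p = 0.0683).

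Angptl4, a secreted inhibitor of lipoprotein lipase, had the largest log2 fold change of the genes called. It was 162, 109, 35.5 and 53.7 in naive replicates 1 to 4 and 193, 231, 291 and 344 in cast replicates 1 to 4. The groups did not overlap, although naive replicate 1 came near cast replicate 1. Angptl4 (chromosome 17, 33773750 to 33781830, minus strand) rose by 1.75 (SE 0.43, 95% interval 0.79 to 2.71, adjusted p = 0.0287), a 3.36-fold change. It did not pass without naive replicate 3 (adjusted p = 0.0593) or without cast replicate 2, 3 or 4 (adjusted p = 0.0621, 0.0835 and 0.0728), nor with the muscle covariate (1.90, adjusted p = 0.0559). With replicate number as a block in the limma fit it did not pass either (adjusted p = 0.0680). Angptl4 is also abundant in fat. The summed fat cell markers overlapped between groups, while 9 of the 10 had a negative difference (median -1.07) and 3 were called lower. The part of fat cells was not tested.

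Other HIF targets were not called. Vegfa, the vascular endothelial growth factor gene, was 134 ± 28.2 in naive against 116 ± 13.0 in cast capsules (log2 difference -0.20, 95% interval -0.60 to 0.21, adjusted p = 0.539), and without its 1 high library, naive replicate 4 at 177, the naive values were 119 to 122. Ndrg1, a stress-inducible gene, was 144 ± 45.5 and 187 ± 32.5 (log2 difference 0.41, adjusted p = 0.315), and passed with array weights (0.55, adjusted p = 0.0362) and without naive replicate 4 and cast replicate 1 (0.68, 0.0290). Pdk1, a kinase that inhibits pyruvate dehydrogenase, was 43.1, 31.9, 43.0 and 34.3 in naive and 49.4, 46.6, 44.7 and 45.7 in cast replicates 1 to 4. Its groups were separate by a narrow margin, and the difference of 0.30 did not pass (adjusted p = 0.278). Bnip3l, Adm, Angptl4 and Pdk1 were the 4 of 8 tested targets whose cast libraries all lay above the naive ones, where 11.1% of all genes tested were separate in that direction. Ankrd37 and Car9, which are strongly hypoxia-inducible in many cells, were close to the limit of detection. Ankrd37 had 14 naive and 15 cast reads in all (log2 difference -0.13, adjusted p = 0.729), and Car9, the carbonic anhydrase gene, had 7 and 18 reads and was not tested.

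**Figure D3:**
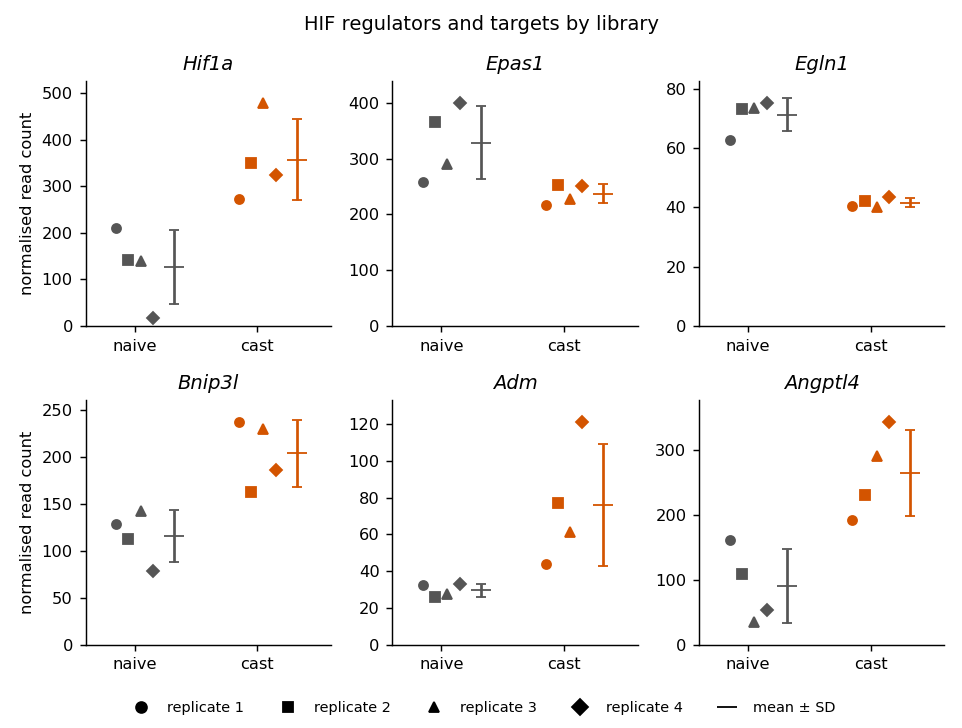
Normalised read counts of 3 HIF regulators and 3 HIF targets in each library, with a symbol for each replicate and bars for mean ± SD (n = 4 per group). Cast libraries lie above all naive libraries for Hif1a, Bnip3l, Adm and Angptl4 and below them for Epas1 and Egln1, and naive replicate 4 is low for Hif1a (17.5).

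The core of the HIF binding element, ACGTG or GCGTG, was searched on both strands in the 250 bases before each RefSeq start site (GRCm38.p6). Of the 34 genes 30 had such a window, and Ndrg1, Epas1, Bnip3l and Angptl4 had none in the table used. In 27 of the 30 genes (90.0%) at least 1 window held a match, where 58.6% of 11312 tested genes with a window did. Matches are to letters only, ACGTG also forms part of the CACGTG box of other factors, and the core contains a CG pair, which is common in such promoters. The upstream stretches of the called genes that have a single start site are shown because they carry the element in a gene that rose (Adm) and in genes that fell (Egln1, Hk2 and Pfkp). They run 5′ to 3′ on the gene's strand, stop where an annotated exon begins, and have matches to the core in capitals, written as CACGT or CACGC where the element is on the opposite strand.
Adm, chr7:110627407-110627656, plus strand: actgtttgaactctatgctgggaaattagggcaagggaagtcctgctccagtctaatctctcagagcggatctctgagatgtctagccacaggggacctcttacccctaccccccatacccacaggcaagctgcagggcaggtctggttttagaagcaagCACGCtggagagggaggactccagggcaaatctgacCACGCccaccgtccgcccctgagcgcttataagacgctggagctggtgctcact
Egln1, chr8:124949325-124949504, minus strand: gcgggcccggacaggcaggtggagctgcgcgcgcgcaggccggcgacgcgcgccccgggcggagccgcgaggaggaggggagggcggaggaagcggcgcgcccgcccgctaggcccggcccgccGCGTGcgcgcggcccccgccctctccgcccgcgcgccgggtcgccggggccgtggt
Hk2, chr6:82774455-82774704, minus strand: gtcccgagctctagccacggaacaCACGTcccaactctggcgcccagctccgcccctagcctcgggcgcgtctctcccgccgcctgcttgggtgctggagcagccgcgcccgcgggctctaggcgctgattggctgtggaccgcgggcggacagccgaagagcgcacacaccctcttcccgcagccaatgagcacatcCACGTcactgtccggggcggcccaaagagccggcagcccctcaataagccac
Pfkp, chr13:6648778-6649021, minus strand: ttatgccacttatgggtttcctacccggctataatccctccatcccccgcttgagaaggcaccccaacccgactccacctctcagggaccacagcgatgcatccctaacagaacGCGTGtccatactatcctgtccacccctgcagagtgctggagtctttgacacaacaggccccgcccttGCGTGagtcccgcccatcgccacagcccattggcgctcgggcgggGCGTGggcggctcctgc
Adm and Hk2 showed 2 matches each, Pfkp 3 and Egln1 1, with 1 further Egln1 match in the trimmed exon bases. These stretches were shown because they carry the core, so their matches cannot tell a rise from a fall.

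In glycolysis 3 of 19 genes were called, all lower (15.8%), where 12.0% of all genes tested were called and 5.46% called lower. They encode hexokinase and phosphofructokinase isoforms, and Hk1 and Pfkl of the same steps were not called. Hexokinase 2 (Hk2), the inducible hexokinase of muscle and fat, was 92.5, 91.6, 114 and 144 in naive replicates 1 to 4 and 43.5, 67.3, 47.9 and 41.7 in cast replicates 1 to 4. No cast library reached the lowest naive library, and naive replicate 4 was the highest of all. Hk2 (chromosome 6, 82725025 to 82774454, minus strand) fell by 1.13 (SE 0.21, 95% interval -1.60 to -0.65, adjusted p = 0.0103) and passed with each library left out in turn. Hk1, the widely expressed hexokinase, was 63.5 ± 14.4 in naive against 57.5 ± 13.5 in cast capsules (log2 difference -0.14, 95% interval -0.63 to 0.35, adjusted p = 0.724).

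Phosphofructokinase genes gave the deepest fall of the set. Pfkm, the muscle isoform, was 63.0, 55.8, 83.7 and 44.6 in naive replicates 1 to 4 and 21.3, 20.5, 19.6 and 18.4 in cast replicates 1 to 4. The cast values were tight, and the naive replicate with low muscle markers had the lowest naive value, which was still above all cast libraries. Pfkm (chromosome 15, 98092589 to 98132451, plus strand) fell by 1.55 (SE 0.20, 95% interval -2.003 to -1.09, adjusted p = 0.00195), a 2.92-fold change. It passed with each library left out and with the muscle covariate (-1.15, adjusted p = 0.0111), which largely follows the group. The part of muscle content in the fall was not tested apart from the cast. Pfkp, the platelet isoform, was 96.9, 93.4, 85.6 and 147 in naive and 49.1, 51.3, 61.8 and 73.1 in cast replicates 1 to 4. Its groups were separate too, with naive replicate 4 highest.

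Pfkp (chromosome 13, 6579768 to 6648777, minus strand) fell by 0.82 (SE 0.21, 95% interval -1.30 to -0.34, adjusted p = 0.0355). This call was lost without naive replicate 1, 2 or 3 (adjusted p = 0.0634, 0.0700 and 0.0537) and without cast replicate 1, 2 or 3 (adjusted p = 0.0812, 0.0993 and 0.0840). Pfkl, the liver isoform, was 37.5, 34.7, 38.0 and 69.2 in naive and 20.8, 45.7, 42.8 and 45.7 in cast replicates 1 to 4 and was not called (log2 difference -0.21, adjusted p = 0.701). Naive replicate 4 and cast replicate 1 stood apart there, and without both the Pfkl difference was 0.28 (adjusted p = 0.129). With the muscle covariate it was -1.07 and passed (adjusted p = 0.0237). The 3 isoforms summed per kilobase of transcript were 64.9 ± 9.03 in naive against 34.7 ± 5.34 in cast capsules (n = 4 each, not tested), and every cast library (27.5 to 40.2) was below every naive library (56.5 to 77.4).

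Aldolase A (Aldoa) was the fourth glycolysis gene with separate groups. It was 737, 652, 802 and 851 in naive replicates 1 to 4 and 309.7, 484, 468 and 565 in cast replicates 1 to 4. All cast libraries were below the lowest naive library, but the difference of -0.76 (SE 0.22, 95% interval -1.26 to -0.26) just missed the threshold (adjusted p = 0.0542). It passed in 6 alternatives, among them DESeq2 (adjusted p = 0.00638), the muscle covariate (0.0331) and without cast replicate 4 (0.0474). Exons of Aldoa overlap Fam57b on the opposite strand. With groups separate and cast lower in 4 of 19 glycolysis genes and cast higher in 0, the shares can be read against 9.39% and 11.1% of all genes tested. Aldoc, the brain isoform, was near the limit of detection with 10 naive and 25 cast reads (log2 difference 0.47, adjusted p = 0.251).

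Members of the later steps and lactate formation did not pass the test in either direction. Outside the members, Eno3 was called lower, and Bpgm and Slc16a1 higher, as given below. Gapdh, often used as a reference gene, was 749, 622, 719 and 979 in naive replicates 1 to 4 and 528, 896, 998 and 836 in cast replicates 1 to 4. The ranges overlapped almost fully (log2 difference 0.07, 95% interval -0.50 to 0.63, adjusted p = 0.893), and the sign turned without naive replicate 2 (-0.03) or cast replicate 3 (-0.04). Pkm, the pyruvate kinase of muscle and most other tissues, was 417 ± 79.8 in naive against 567 ± 120.2 in cast capsules (log2 difference 0.44, adjusted p = 0.242). Pgk1, phosphoglycerate kinase, was 86.8 ± 13.2 and 115 ± 22.9 (log2 difference 0.39, adjusted p = 0.252). Neither was called, and the 95% intervals were -0.05 to 0.92 for Pkm and -0.06 to 0.83 for Pgk1. With array weights both passed, Pkm at 0.67 (adjusted p = 0.00982) and Pgk1 at 0.47 (0.0470), as they did without naive replicate 4 and cast replicate 1 (0.68 and 0.53, adjusted p = 0.0159 and 0.0391). Pkm was -0.08 with the muscle covariate (adjusted p = 0.805).

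Triosephosphate isomerase (Tpi1), enolase 1 (Eno1) and lactate dehydrogenase A (Ldha) had negative differences and 1 cast library that stood below the others. Tpi1 was 69.7 in cast replicate 1 and 144 to 158 in the other cast libraries. Eno1 was 147 there and 347 to 381 in the others, and Ldha was 141 against 314 to 396. Their log2 fold changes were -0.44, -0.20 and -0.27 (adjusted p = 0.334, 0.742 and 0.623), and without cast replicate 1 those of Tpi1, Eno1 and Ldha were -0.17, 0.13 and 0.05. Tpi1 was -0.99 and passed with the muscle covariate (adjusted p = 0.0487). Cast replicate 1 was the lowest cast library in 12 of the 19 glycolysis genes, and naive replicate 4 the highest naive library in 13 of them. Gpi1, glucose phosphate isomerase, at 231 ± 58.2 and 280.1 ± 65.0, and Pgam1, phosphoglycerate mutase 1, at 97.8 ± 0.964 and 109.5 ± 14.4, were not called (log2 differences 0.28 and 0.15, adjusted p = 0.477 and 0.568).

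**Figure D4:**
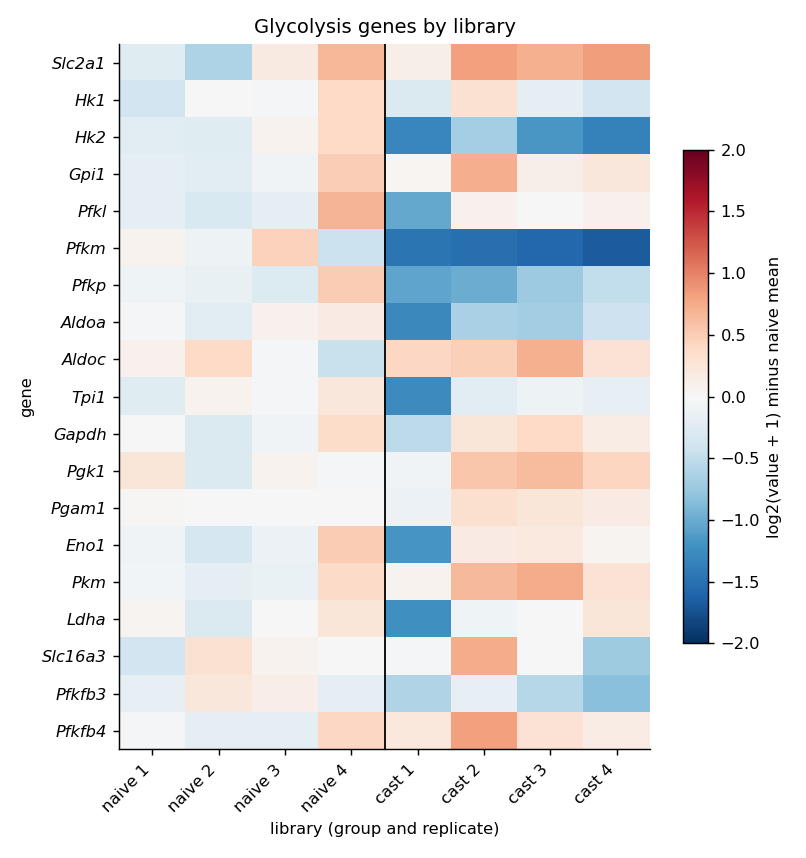
Heat map of the 19 glycolysis genes in pathway order (rows) across the 8 libraries (columns), coloured by log2(value + 1) minus the naive mean of the gene. Hk2, Pfkm, Pfkp, Aldoa, Tpi1 and Pfkfb3 are below their naive mean (blue) in all 4 cast libraries. Cast replicate 1 is lowest of the cast libraries in 12 of the 19 rows.

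Transport and the regulatory kinases complete the list. Slc2a1, the glucose transporter GLUT1, was 17.8, 13.6, 24.3 and 34.3 in naive and 23.1, 38.1, 35.3 and 38.7 in cast replicates 1 to 4. The ranges overlapped and the difference of 0.62 did not pass (adjusted p = 0.212), but without naive replicate 4 it was 0.84 and passed (adjusted p = 0.0391). The sign turned with the muscle covariate (-0.04). Slc16a3, the lactate exporter MCT4, was 19.0 ± 3.81 and 20.1 ± 8.75 (log2 difference 0.00, 95% interval -0.67 to 0.67). Pfkfb3, which makes the activator of phosphofructokinase, was 164, 216, 203 and 162 in naive and 122, 166, 124 and 103 in cast replicates 1 to 4. Its difference of -0.54 was not called (adjusted p = 0.0988), and without naive replicate 4 it was -0.61 and passed (adjusted p = 0.0448). Pfkfb4, of the same family, was 22.5 ± 4.96 and 29.5 ± 7.13 (log2 difference 0.37, adjusted p = 0.327), and passed with array weights (0.52, adjusted p = 0.0382).

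Per kilobase of transcript, which allows levels of different genes to be compared, Gapdh led the naive capsules at 603, followed by Aldoa at 512, Ldha at 211, Pkm at 186 and Eno1 at 174. In cast capsules the order was Gapdh at 639.9, Aldoa at 307, Pkm at 253, Ldha at 186 and Eno1 at 159. The same 5 genes thus led both groups. Car9, Aldoc and Ankrd37 were the lowest in both groups, each below 1 per kilobase.

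Isoform families showed where the makeup of a step differed between groups, as a description without a test. Glucose transporters went from mostly Slc2a4 (GLUT4, the insulin-responsive transporter) to a mixture. The Slc2a4 share was 79.5, 86.3, 85.7 and 85.3% in naive replicates 1 to 4 and 45.2, 46.8, 45.5 and 58.4% in cast replicates 1 to 4. Slc2a4 fell from 111 ± 44.0 to 48.5 ± 17.9 (log2 difference -1.17, adjusted p = 0.0427), although its ranges met at 70.4 and 71.3. Slc2a4 is typical of muscle and fat, whose markers were also lower in cast capsules (18 of 18 muscle markers negative, median -3.39, and 9 of 10 fat cell markers, median -1.07). Slc2a4 was -1.84 with the muscle covariate (adjusted p = 0.0111), and the part of fat cells was not tested. Slc2a3 (GLUT3, abundant in neurons and leukocytes) rose from 10.04 ± 3.17 to 52.0 ± 35.7 (2.09, adjusted p = 0.0135), but did not pass with the muscle covariate (1.58, adjusted p = 0.0814). It was highest in cast replicate 2 at 103, the library with the highest neutrophil marker sum (6754), and the part of those cells was not tested. The Slc2a4 call was lost without naive replicate 2 or 3 (adjusted p = 0.0764 and 0.103) and without cast replicate 1, 3 or 4 (adjusted p = 0.103, 0.126 and 0.0684).

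Among hexokinases, the Hk2 share was 49.8 to 56.5% in naive and 26.5 to 36.2% in cast libraries. Hk3, the hexokinase of myeloid cells, took 9.80 to 14.4% in naive and 17.8 to 39.7% in cast libraries, and its level of 18.4 ± 6.87 and 33.6 ± 26.5 was not called (adjusted p = 0.425). Like Slc2a3 it was highest in cast replicate 2, at 72.4. The Pfkm share overlapped between groups, at 36.8, 35.1, 45.7 and 20.5% in naive and 27.4, 21.1, 19.1 and 16.2% in cast replicates 1 to 4. Naive replicate 4, which was poor in muscle markers, therefore had a Pfkm share like those of the cast libraries although its Pfkm level was above them.

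The muscle isoforms of the lower pathway were Eno3 and Pgam2. Eno3, muscle enolase, was 47.2, 39.4, 64.5 and 9.06 in naive and 6.59, 3.897, 3.27 and 7.07 in cast replicates 1 to 4. Naive replicate 4 came close to the cast libraries here, as it did in the muscle markers. Eno3 fell by 2.49 (adjusted p = 0.0158) and did not pass with the muscle covariate (-0.77, adjusted p = 0.106), without naive replicate 2 (adjusted p = 0.0503) or without cast replicate 3 (0.0544). Pgam2, muscle phosphoglycerate mutase, was 10.4 ± 7.42 in naive against 2.41 ± 0.3604 in cast capsules and was not called (log2 difference -1.28, adjusted p = 0.254), with 0.647 in naive replicate 4. Ldhb, the heart form of lactate dehydrogenase, was 17.8 ± 8.86 and 19.8 ± 2.28, and Eno2, neuronal enolase, 10.6 ± 4.21 and 8.31 ± 1.33 (adjusted p = 0.635 and 0.553).

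**Figure D5:**
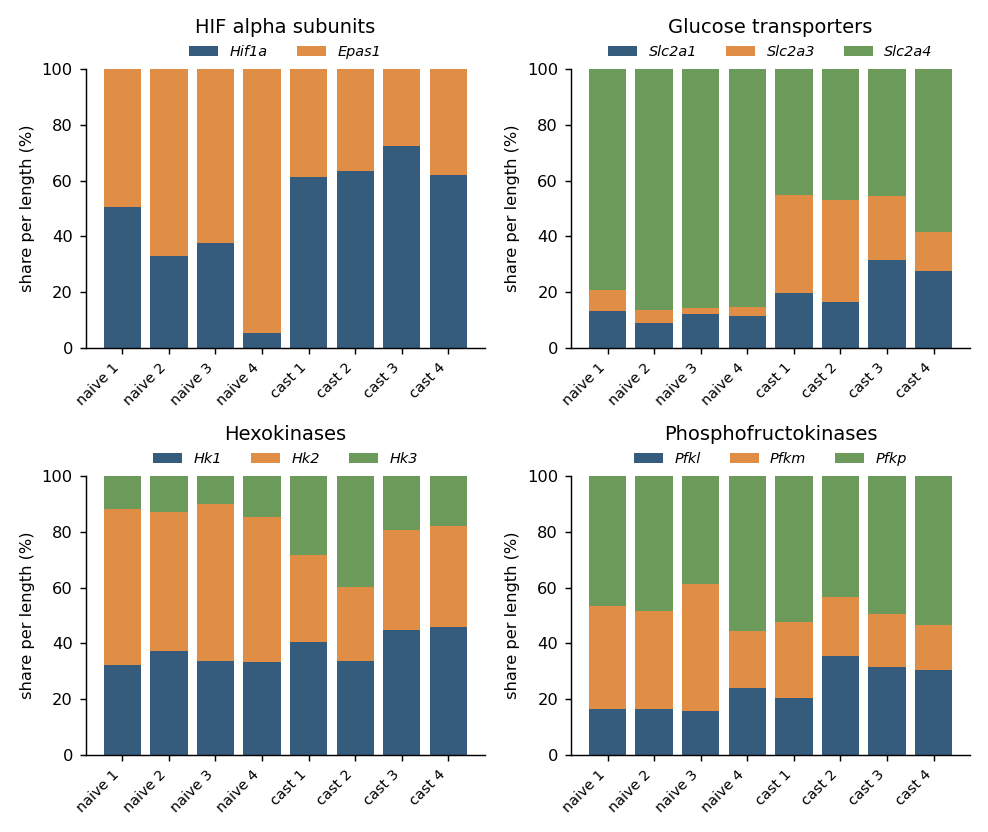
Share of each gene in the summed level per kilobase of its family (%, stacked bars to 100) for the 8 libraries, in 4 families. The Hif1a, Slc2a1, Slc2a3 and Hk3 shares are higher and the Epas1, Slc2a4 and Hk2 shares lower in every cast library than in any naive library, whereas phosphofructokinase shares overlap.

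Lactate transporters and the pyruvate dehydrogenase kinases were the remaining families. Slc16a1, the lactate and ketone transporter MCT1, rose from 43.8 ± 18.7 to 136 ± 53.7 (log2 difference 1.66, adjusted p = 0.0244). Its values were 57.9, 58.4, 40.0 and 18.8 in naive and 82.4, 106, 151 and 204 in cast replicates 1 to 4, with no overlap. The call was lost without naive replicate 3 (adjusted p = 0.0616) and without cast replicate 3 or 4 (0.0763 and 0.0603). Pdk2, Pdk3 and Pdk4, relatives of Pdk1, were not called (log2 differences -0.46, 1.03 and 0.32, adjusted p = 0.229, 0.0683 and 0.844). Pdk4, which is induced by fasting and fat oxidation, varied most, from 9.06 to 88.3 in naive and from 14.2 to 146 in cast libraries. With the muscle covariate Pdk3 and Pdk4 were 1.83 and 2.74 and passed (adjusted p = 0.00789 and 0.0248), and without naive replicate 4 Pdk3 was 0.69 and passed (0.0179). Pfkfb1 fell from 18.6 ± 3.04 to 6.52 ± 2.552 (log2 difference -1.44, adjusted p = 0.0118) and Pfkfb2 was not called (0.13, adjusted p = 0.810).

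Further genes of these pathways came from lists of the same kind. Of 11 other HIF pathway genes and 8 pentose phosphate genes limma, edgeR and DESeq2 each called 0, and 0 and 1 had an unadjusted limma p under 0.05. Among 48 other hypoxia-inducible genes tested, 2 rose and 4 fell, which is 12.5% and close to the 12.0% of all genes. Lox, a collagen crosslinking enzyme, rose from 168 ± 49.2 to 696 ± 309.7 (log2 difference 2.02, adjusted p = 0.00493), and Mif, a cytokine, from 22.8 ± 9.46 to 61.5 ± 11.1 (1.45, adjusted p = 0.00821). Mif did not pass with the muscle covariate (adjusted p = 0.0578). The prolyl 4-hydroxylases of collagen, P4ha1 and P4ha2, fell by 0.81 and 1.06 (adjusted p = 0.0173 and 0.0306). Pfkfb1, which also fell, is given above. P4ha1 was lost when naive replicate 3 (adjusted p = 0.0537) or cast replicate 2 (0.0546) was left out. P4ha2 was lost without naive replicate 1, 2 or 3 or cast replicate 2 or 4 (adjusted p from 0.0549 to 0.0742).

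Of 37 other glycolysis and pyruvate genes tested, 4 rose and 6 fell (27.0%, median -0.27), where 12.0% of all genes tested were called, 6.51% higher and 5.46% lower. Besides Slc2a3 and Slc16a1, Bpgm, which makes 2,3-bisphosphoglycerate in red cells, rose from 18.1 ± 5.09 to 78.6 ± 43.8 (log2 difference 1.91, adjusted p = 0.0154). Its cast values of 103, 50.7, 127 and 33.6 in replicates 1 to 4 had the same order as the haemoglobin sums, and the part of red cells was not tested. With the muscle covariate Bpgm did not pass (adjusted p = 0.0779). Pgm1, as the table names this phosphoglucomutase, rose from 21.5 ± 1.003 to 36.0 ± 5.08 (0.71, adjusted p = 0.0219). Slc2a12, Pdp2 and Pdhb fell by 0.98, 0.76 and 0.76 (adjusted p = 0.0134, 0.0218 and 0.0403). Pdhb is a subunit of pyruvate dehydrogenase and Pdp2 the phosphatase that activates it. Pgm1 was lost without naive replicate 2 or 3 or cast replicate 3 or 4 (adjusted p from 0.0555 to 0.0818), with the muscle covariate (0.0660) and in libraries thinned to equal depth (0.145). Pdp2 was lost without replicate 2 or 3 of either group (adjusted p from 0.0511 to 0.0729), and Pdhb without each library in turn except naive replicates 2 and 4 (0.0597 to 0.111).

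Gluconeogenesis and glycogen genes gave falls only among those called, 2 of 5 and 3 of 13 tested, where 5.46% of all genes tested fell. Pcx, pyruvate carboxylase, was 593, 643, 541 and 893 in naive and 138, 236, 155 and 166 in cast replicates 1 to 4. It fell by 1.94 (SE 0.23, adjusted p = 0.00112), with the groups far apart. Pck1, which in fat serves glycerol synthesis, fell from 373 ± 166 to 81.4 ± 33.9 (log2 difference -2.19, adjusted p = 0.00546). Both are abundant in fat. Of the 10 fat cell markers 9 had a negative difference (median -1.07), their summed level overlapped between groups, and their part in these falls was not tested. Pygb, the brain form of glycogen phosphorylase, and Phka2, a phosphorylase kinase subunit, fell by 1.13 and 0.83 (adjusted p = 0.00848 and 0.0188). Phka2 was lost without naive replicate 2 or 3 or cast replicate 3 (adjusted p = 0.0560, 0.0612 and 0.0547) and with the muscle covariate (0.0695). Pygm, the muscle form, fell by 2.53 (adjusted p = 0.0485). With the muscle covariate its difference was -0.09 (adjusted p = 0.851), and naive replicate 4 at 9.70 lay within the cast range of 4.23 to 20.4. Its call was also lost without naive replicate 1, 2 or 3 (adjusted p = 0.109, 0.119 and 0.121) and without cast replicate 2, 3 or 4 (0.115, 0.134 and 0.104).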

How the data were processed

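RNA was sequenced from 8 capsule libraries. Per the labels' protocols, libraries were directional and depleted of ribosomal RNA, and read pairs of 150 nt were trimmed with Trimmomatic (0.38 in the protocol, 0.36 in the submitters' processing notes) and mapped with Bowtie2 within RSEM. The protocol names a human build and the notes mm10 and edgeR; whether counting used the strand is not given in the sources used here. Exons of 13 members overlap another gene on the opposite strand and abundant glycolysis genes have near-identical copies, so reads could be shared. The authors deposited a normalised signal, read counts scaled per library. All values were whole multiples of 1 read within 0.01, and reads recovered this way numbered 1503880 to 7381255 per library.

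Members and lists were chosen with earlier results of these data known. Values were taken to log2 after adding 1, genes whose mean reached 0.5 entered the fit, and groups were compared with limma 3.58.1 (trend, R 4.3.3; Benjamini-Hochberg at 0.05). Members were all described; of each further list, at most the 4 genes with the smallest p in each direction among those called, and fixed isoform partners, were named. 1 such gene is not reported here. Lengths are medians of GENCODE M21 basic coding transcripts. Tool versions for alternatives were edgeR 4.0.16 and DESeq2 1.42.0. The fit was first tested on simulated data with known changes. Promoters are from RefSeq (GRCm38.p6), and in 28 of 30 members the bases after the start matched a GENCODE transcript of that gene.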

Additional observations from a re-analysis of the deposited data

Results flagged for a closer look

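Within groups of 4 libraries, 7 of 68 groups (34 genes in each condition) had a library separated from the other 3 by a gap above Dixon's critical share of the range, where chance gives about 1 in 20. Cast replicate 1 was low for Pfkl (20.8, others 42.8 to 45.7), Tpi1 (69.7, others 144.5 to 157.8) and Eno1 (146.7, others 347.3 to 381.2). Naive replicate 4, the shallowest library, was high for Vegfa (176.6, others 119.0 to 122.2) and Pfkl (69.2, others 34.7 to 38.0). Naive replicate 1 was high for Arnt (110.1, others 97.0 to 98.7) and low for Egln1 (62.8, others 73.2 to 75.0).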

How the results depend on the processing

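The 1810 genes changed became 3985 with array weights, 4298 with the muscle covariate, 2754 with DESeq2, and 916 to 2665 leaving out 1 library. Without naive replicate 4 and cast replicate 1, an alternative chosen after seeing the data like thinning to equal depth, they were 3278. Members higher (3) were 9 with array weights, 8 without both those libraries, 1 in thinned libraries and 0 to 5 leaving out 1 library (0 without cast replicate 2 or 3). Members lower (4) were 8 with the muscle covariate and 3 to 5 leaving out 1 library. Egln1, Hk2 and Pfkm passed in all 23 alternatives. The median log2 difference of glycolysis genes (-0.14) was 0.13 with array weights and -0.52 with the muscle covariate. Without naive replicate 4 and cast replicate 1 it was 0.24. The median of HIF targets (0.35) was 0.72 with the muscle covariate. With replicate number as a block, 1371 genes, 2 members higher and 4 lower passed. Angptl4, Slc16a1, P4ha1, P4ha2, Pgm1, Pdp2, Pdhb and Phka2 were among the calls lost with that block. Same-numbered libraries had correlations of deviations from -0.069 to 0.099, and not every library correlated best with its own number. These correlations cannot show whether same-numbered libraries shared animals or handling, so pairing by number remains unknown.

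Of 755 values for 33 members, 30 turned sign, in 12 genes that were not called. Under the muscle covariate the log2 difference was -0.0153 for Ndrg1, -0.0378 for Slc2a1, -0.23 for Gpi1, -0.49 for Gapdh, -0.0850 for Pkm, -0.23 for Slc16a3 and -0.10 for Pfkfb4. For isoform partners it was -0.14 for Hk3, 0.58 for Pgam2 and -0.39 for Ldhb. With array weights it was -0.42 for Bnip3, 0.0236 for Hk1, 0.13 for Pfkl, 0.16 for Eno1, -0.76 for Pdk4 and -0.13 for Pfkfb2. Slc16a3 was -0.000591 at a pseudocount of 0.5, -0.00346 with median-of-ratios scaling and -0.0924 after quantile normalisation. In thinned libraries Pfkl was 0.000151 and Ldhb -0.0624. Leaving out 1 library, or both naive replicate 4 and cast replicate 1, the ranges were -0.38 to 0.3523 for Bnip3, -0.2879 to 0.0446 for Hk1, -0.3151 to 0.28 for Pfkl, -0.0435 to 0.3857 for Gapdh and -0.3235 to 0.30 for Eno1. They were -0.4413 to 0.13 for Ldha, -0.2461 to 0.2387 for Slc16a3, -0.87 to 0.8486 for Pdk4 and -0.21 to 0.2735 for Pfkfb2. The causes were not tested. Naive replicate 4, with the fewest reads, limits what can be seen of low genes such as Car9 and Aldoc.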
